A study of Mus musculus with 4 samples.

Results

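The cell cycle genes described here are 34 genes of DNA replication and cell division, taken by symbol from a list and followed through every marker-defined cell type of mouse tibial marrow. All 34 were among the 31053 genes of the deposited count matrices. They comprise 18 genes of G2 and mitosis (Mki67, Top2a, Ccnb1, Ccnb2, Ccna2, Cdk1, Birc5, Aurka, Aurkb, Bub1, Plk1, Cenpe, Cenpf, Ube2c, Nusap1, Kif11, Tpx2 and Cdc20), 14 genes of the G1/S transition and DNA replication (Ccne1, Ccne2, Pcna, Mcm2 to Mcm7, Gins2, Tyms, Rrm1, Rrm2 and Tk1), and Stmn1 and Hmgb2, which are also made by many cells outside the cycle. The cells were tibial marrow cells of C57Bl/6JCrl mice, depleted of red cells and sorted to lack DAPI, lineage markers, CD45 and Ter119. The control mice were Vegfc flox/flox, and the Vegfc-deleted mice also carried RosaCreERT2, a tamoxifen-activated Cre recombinase made in all cell types, so the deletion is not limited to 1 cell type. Both genotypes were given 5 tamoxifen doses at 7 to 8 weeks of age, so the controls carry the same drug exposure, although 1 phrase of the labels ties tamoxifen to only some of the libraries. In 1 group of each genotype, total body irradiation of 4 Gy followed 2 weeks later, and marrow was taken 7 days after that. Each of the 4 groups is 1 library, pooled from 3 mice (each non-irradiated group) or 2 mice (each irradiated group). For the irradiated groups the labels also speak of 3 mice per genotype, and the pool size of 2 is the one given here. With 1 library per group there is no replicate spread and no test of any difference: the 95% intervals below cover counting error only, and a difference compares libraries.

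Cells leaving G1 switch on the replication genes: cyclin E (Ccne1, Ccne2) starts S phase with its kinase, the MCM helicase (Mcm2 to Mcm7) and the GINS complex (Gins2) open DNA, Pcna holds the polymerases on it, and Tyms, Rrm1, Rrm2 and Tk1 supply nucleotides. In G2 and mitosis, cyclins A and B activate Cdk1, the kinases Aurka, Aurkb, Plk1 and Bub1 order spindle building and chromosome attachment, and Cdc20 and Ube2c work with the anaphase-promoting complex, which ends mitosis by destroying cyclins. In marrow, erythroblasts, early B precursors and granulocyte precursors are known as dividing populations, whereas stromal and endothelial cells are largely at rest.

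The promoters of both gene groups are shown because short sequence motifs, read by factors that repress or activate these genes at rest and in the cycle, are known to differ between them. The members lie on 15 chromosomes (GRCm38), and 27 of them had a promoter in the RefSeq table (GRCm38.p6), 28 promoters in all since Mcm7 has 2. In the 250 bases before the start, both strands were searched for CCAAT, the box bound by NF-Y, for the cell cycle homology region (CHR, searched as TTTGAA and also as TTCGAA) and for an E2F core, searched in its forms TTGGCGC, also TTCGCGC, also TTCCCGC and also TTGCCGC. Matches of different kinds overlapped only in Ccnb1. CCAAT was found in 86.7% of the 15 promoters of G2 and mitosis members and in 75.0% of the 12 of G1/S members, against 33.8% of all 32851 promoters in the table. The CHR letters were found in 46.7% of the G2 and mitosis promoters, in 16.7% of the G1/S promoters and in 17.1% of all promoters. The E2F cores went the other way, with 20%, 50% and 7.89%. A match is a description of letters, not evidence that a factor binds there. Promoters with the most matches follow, 5′ to 3′ on the gene's strand, with capitals marking CCAAT and CHR on either strand in Top2a (minus strand, chr11:99024190-99024439) and Ube2c (plus strand, chr2:164769679-164769928), and E2F cores on either strand in Mcm6 (minus strand, chr1:128359706-128359955) and Mcm5 (plus strand, chr8:75109259-75109508).
Top2a: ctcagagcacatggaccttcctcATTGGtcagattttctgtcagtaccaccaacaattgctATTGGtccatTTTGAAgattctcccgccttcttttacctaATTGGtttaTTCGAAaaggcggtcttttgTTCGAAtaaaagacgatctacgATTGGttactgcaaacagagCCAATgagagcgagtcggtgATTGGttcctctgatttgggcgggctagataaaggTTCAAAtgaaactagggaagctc
Ube2c: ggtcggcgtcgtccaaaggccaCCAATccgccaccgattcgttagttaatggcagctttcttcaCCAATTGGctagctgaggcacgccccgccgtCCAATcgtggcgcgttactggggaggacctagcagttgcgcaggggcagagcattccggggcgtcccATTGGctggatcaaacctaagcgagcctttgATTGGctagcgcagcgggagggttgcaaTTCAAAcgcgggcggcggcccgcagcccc
Mcm6: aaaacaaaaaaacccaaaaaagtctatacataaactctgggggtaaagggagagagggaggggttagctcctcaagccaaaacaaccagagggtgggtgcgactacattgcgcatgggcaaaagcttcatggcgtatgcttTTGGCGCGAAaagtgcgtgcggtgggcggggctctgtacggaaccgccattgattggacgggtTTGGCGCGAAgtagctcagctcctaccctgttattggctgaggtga
Mcm5: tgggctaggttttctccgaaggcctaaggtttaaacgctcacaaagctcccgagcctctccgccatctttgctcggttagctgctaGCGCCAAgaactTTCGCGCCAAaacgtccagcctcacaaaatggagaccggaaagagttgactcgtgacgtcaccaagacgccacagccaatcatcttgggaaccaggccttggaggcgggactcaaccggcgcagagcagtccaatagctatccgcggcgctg

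In those sequences Top2a holds 6 CCAAT and 4 CHR matches and Ube2c 6 and 1, while Mcm6 holds 4 and Mcm5 3 matches to an E2F core. Matches of 1 kind on opposite strands are counted apart and can share bases, so the counts are not separate sites. Each TTGGCGCGAA of Mcm6 and the TTCGCGCCAA of Mcm5 hold 2 E2F matches, and the CCAATTGG of Ube2c holds 2 CCAAT matches. Mcm6 and Mcm5 also hold 2 CCAAT matches each, which are left in lower case.

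Where 4 values are listed without names, the pair without irradiation comes first, control before Vegfc-deleted, and the irradiated pair follows in the same order. The libraries held 7454, 7737, 5150 and 5134 cell barcodes, of which 5058, 5211, 3837 and 4065 were kept. Median depth was 7635.5, 7851, 9874 and 9808 UMIs (unique molecule counts) per cell, so the irradiated libraries were deeper. Vegfc itself, in LepR+ stroma, was at 171 and 175 CPM (counts per 1000000 UMIs) in the control libraries and at 18.28 and 23.69 CPM in the deleted ones. The non-irradiated libraries share 117 barcodes, and the other pairs share 13 to 24. Cell types were named from marker genes on clusters built without the members and without 122 further cell cycle genes, so they rest on those markers and not on the authors' own annotation. Haemoglobin and B-lineage, myeloid and T cell genes marked many cells despite the CD45 and Ter119 gates. A cell was called cycling when, after every cell had been thinned to 1500 UMIs, it showed 2 or more UMIs from different genes of the G2 and mitosis list or of the G1/S list. CPM values below are the summed counts of all cells of a type. They count 3′ ends, so no length correction applies.

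By this call, 42.8% (interval 41.4 to 44.2) and 48.2% (46.8 to 49.6) of cells were cycling without irradiation, and 28.1% (26.6 to 29.6) and 33.1% (31.6 to 34.6) with it. Both irradiated libraries were lower than both non-irradiated ones. The cycling cells were also of other types. Mid erythroblasts were 60.9% and 53.9% of all cycling cells without irradiation, and 27.7% and 15.9% with it. In the irradiated control library, early B precursors made up 26.2% and sinusoidal endothelium 15.3% of cycling cells, and in the irradiated Vegfc-deleted library immature neutrophils made up 19.4% and monocytes 16.8%. Sinusoidal endothelium was 37.0% of the cells kept in the irradiated control library, and only 11.1% of its cells were called cycling. The call has a soft edge: 1267, 1019, 853 and 690 cells lay 1 UMI or 1 gene below it and 381, 324, 258 and 212 just above it. Under a strict call of 5 UMIs from 5 G2 and mitosis genes, chosen after the data were seen, the shares were 27.5%, 29.0%, 11.0% and 16%, in the same order of irradiated below non-irradiated libraries. Of the 403 cells past the strict call in the irradiated control library, 11 were sinusoidal endothelium. The sort and red cell depletion set which types enter each library, so these totals mix the share of each type with its cycling.

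**Figure D1:**
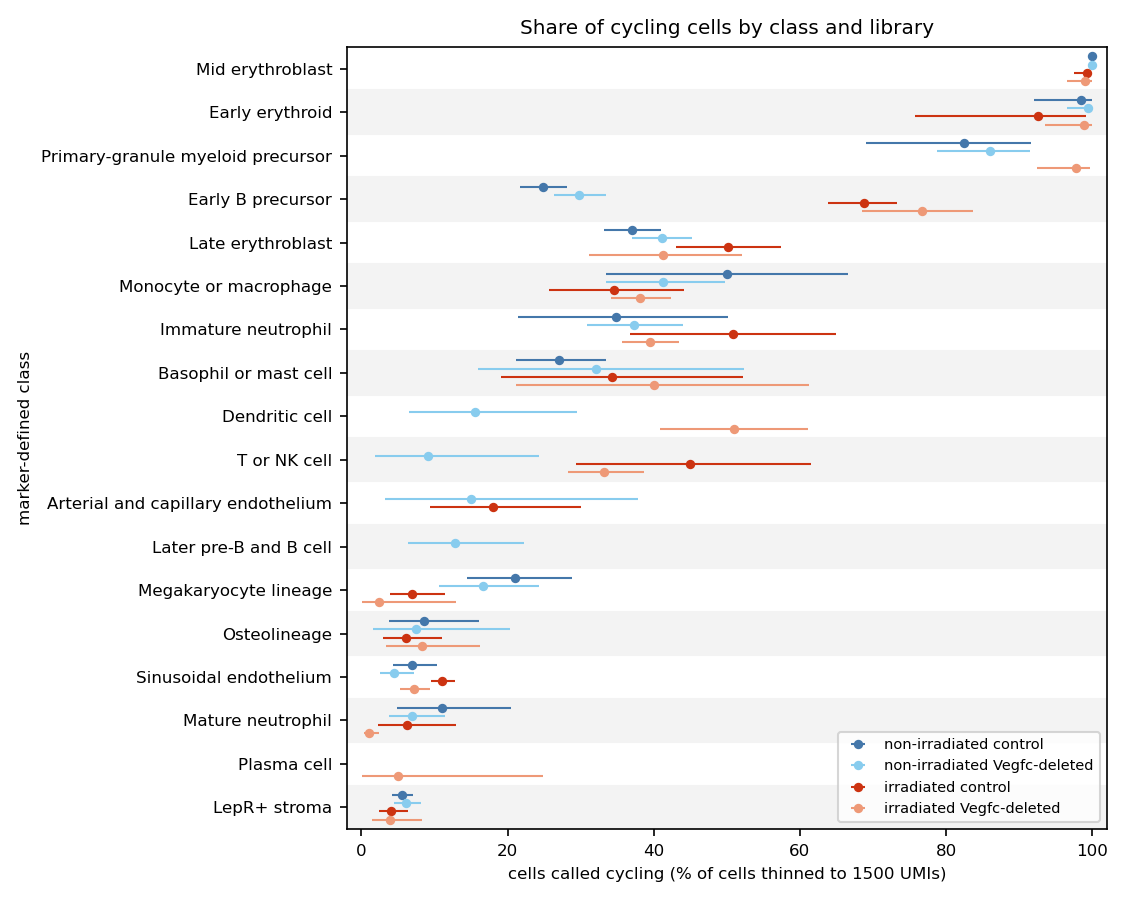
Share of cells called cycling (x axis, percent of cells thinned to 1500 UMIs) by cell type and library, for types with 20 or more thinned cells; points are libraries and bars are 95% binomial intervals, which cover counting error only. Mid erythroblasts sit between 99.0% and 100% in every library, early B precursors move from 24.8% and 29.8% to 68.7% and 76.7% with irradiation, and stroma and sinusoidal endothelium stay below 12%.

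Cell types ranged from almost fully cycling to near the floor of the call. Mid erythroblasts were at 100%, 99.9%, 99.3% and 99.0% and early erythroid cells at 98.5%, 99.4%, 92.6% and 98.8%. Next came the myeloid precursors that make primary granules, at 82.4%, 86.0% and 97.8% in the libraries with more than 5 such cells. An unnamed cluster led by Ctsk and Atp6v0d2, genes of bone-resorbing osteoclasts, was also high, at 97.5%, 98.4%, 86.7% and 66.7%. Its best marker score was for early erythroid cells (3.37), though none of the erythroid markers was among its leading genes. Cells called cycling there had median depths of 3142, 3425, 2794 and 8409 UMIs, against 7368, 21676.5, 1794 and 25750 in the rest. Whether the cells with osteoclast genes are the ones that cycle was not tested. Immature neutrophils were at 34.8%, 37.3%, 50.9% and 39.5%, and mature neutrophils, which have left the cycle, at 11.0%, 6.93%, 6.19% and 1.01%. LepR+ stroma, the marrow's main support cell, was at 5.51%, 6.12%, 4.03% and 3.92%, and osteolineage cells were at 8.51%, 7.5%, 6.17% and 8.24%. Shares of a few percent in such resting types are taken as the background of the call. Free RNA from broken cells can add UMIs to droplets, and its part in these shares was not tested. Under the strict call LepR+ stroma had 0 cycling cells in the first library, for which 3 counts of the total give a limit of 0.267%, and 0.284%, 0.237% and 0.654% in the other libraries. Osteolineage cells were at 1.06%, 2.5%, 0.617% and 3.53% under that call, from 1, 1, 1 and 3 cells.

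The G1/S and G2/M groups followed each other across types, but not fully. Over 48 points of cell type and library, the summed G1/S and G2/M levels had a Pearson r of 0.82 on the log2 scale, given as a description because points share libraries, depth and free RNA. Of the 34 members, 30 were highest in mid erythroblasts. The exceptions were Cdc20 and Gins2, highest in early erythroid cells at 144.7 and 72.32 CPM, and Stmn1 and Hmgb2, highest in early B precursors at 1351 and 4056 CPM. Stmn1 encodes stathmin, which takes microtubules apart, and Hmgb2 is a DNA-bending chromatin protein. Rrm2, the ribonucleotide reductase subunit listed with G1/S, tracked the G2/M members more closely (r 0.94) than the other G1/S members (r 0.84). Every other G1/S member did the reverse. Pcna and Gins2 had the lowest r to G2/M among them, at 0.63 and 0.58, with 0.92 and 0.83 to G1/S. Of the G2/M members, only Aurkb was closer to G1/S (r 0.89) than to the other G2/M members (r 0.87). Of genes outside all the cell cycle lists, those most like the summed G2 and mitosis level over the same 48 points included Dlgap5 (r 0.981), Depdc1a (0.95), Cdkn3 (0.942), Esco2 (0.939), Aspm (0.938), Hist1h1b (0.938), Spag5 (0.931), Kifc1 (0.926) and Kif18b (0.925).

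**Figure D2:**
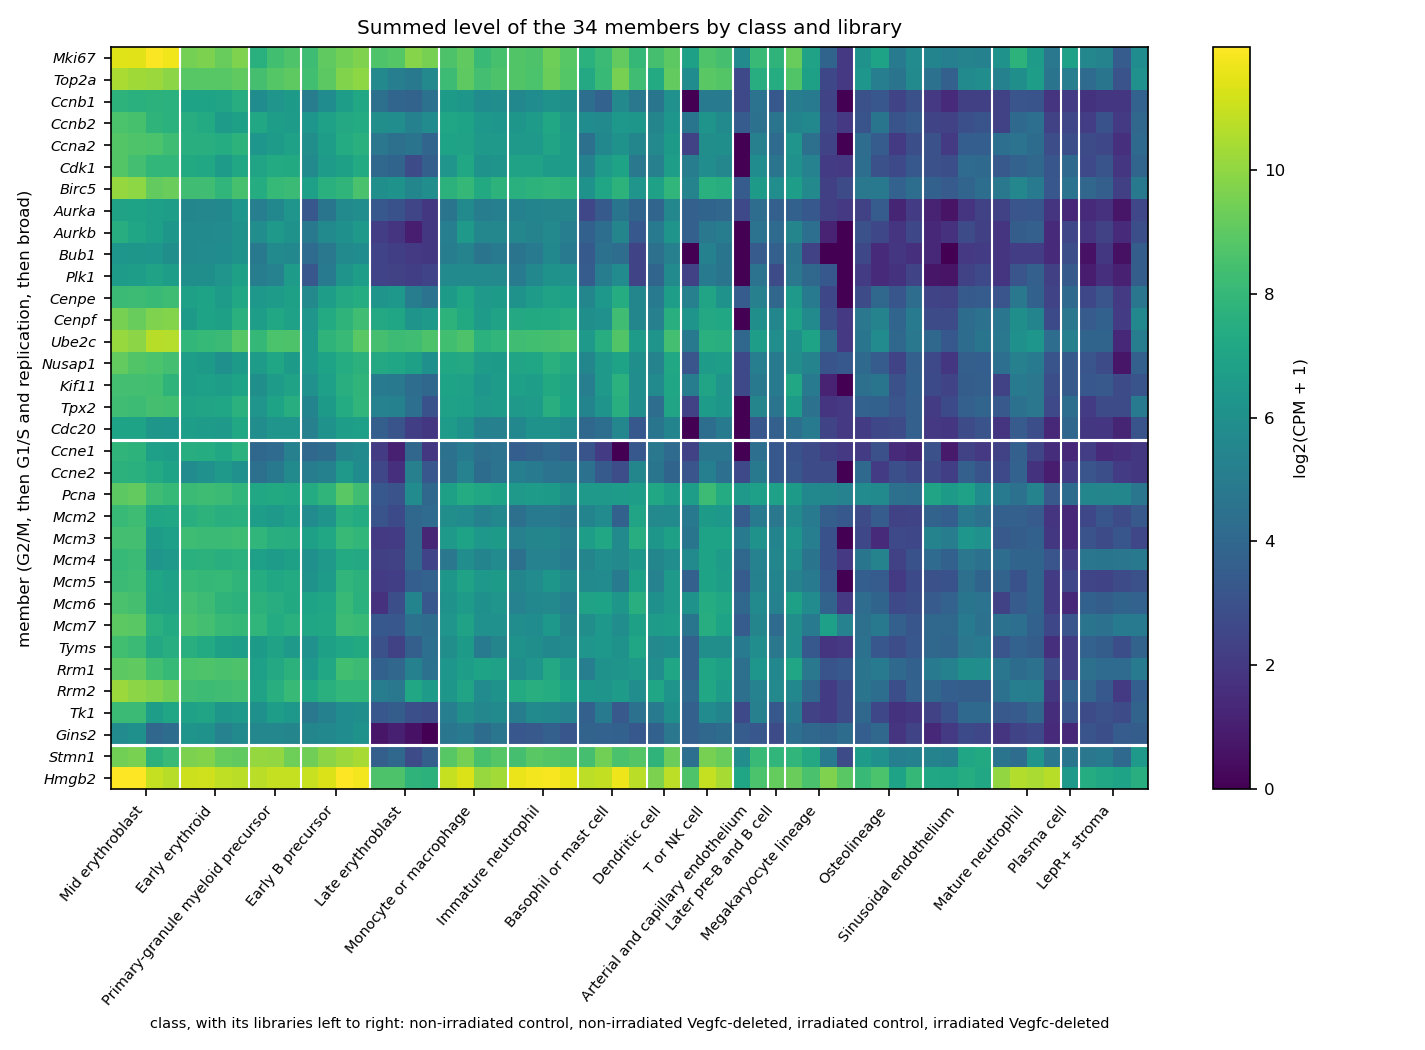
Level of each member (rows; colour, log2 of CPM in the summed cells of a type) in each cell type and library (columns). Erythroid columns hold the highest levels of most members, Stmn1 and Hmgb2 peak in early B precursors, and columns of LepR+ stroma and sinusoidal endothelium are low. Arterial and capillary endothelium of the irradiated control library is higher, at a summed 1060 CPM of G2 and mitosis members, and 2 cells held 50% of those UMIs.

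The phases separated erythroid stages. Mid erythroblasts held G2 and mitosis members at a summed 10640, 9754, 10910 and 9971 CPM, and G1/S members at 5298, 5172, 2776 and 2500 CPM. The mitotic sum was alike in all libraries, while the replication sum was lower in both irradiated ones. Early erythroid cells had nearly equal sums, with 3218, 3337, 2898 and 4031 CPM for G2/M and 3262, 3191, 2845 and 2872 CPM for G1/S. Late erythroblasts, which are about to lose the nucleus, had 1465, 1403, 1649 and 1552 CPM of G2/M members against 107.1, 98.58, 422.7 and 231.7 CPM of G1/S members. Early erythroid members differed little. Between genotypes without irradiation no member of either phase list reached 1.5-fold (5.76% of all genes higher, 1.85% lower). In the irradiated Vegfc-deleted library 5 of 18 G2 and mitosis members were higher than in its non-irradiated counterpart (12.8% of all genes higher). Ube2c was among them, at 260.6 and 475.2 CPM. The cycling cells of late erythroblasts were mostly called by G2/M genes alone, in 94.6%, 93.2%, 75.2% and 86.8% of cases.

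**Figure D3:**
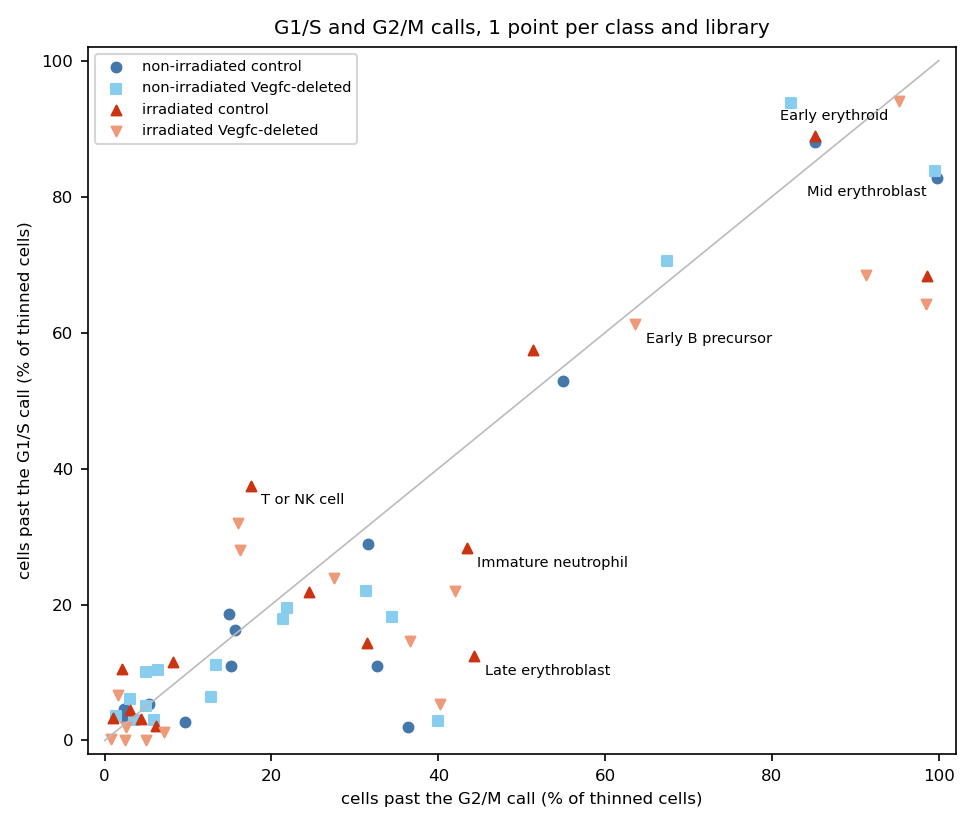
Share of cells with a G2/M call (x axis, percent of thinned cells) against share with an S-phase call (y axis, percent of thinned cells). Each point is a cell type in 1 library. Late erythroblasts lie far to the G2/M side, with G2/M calls in 36.4% to 44.3% of cells and S-phase calls in 1.98% to 12.4%.

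In mid erythroblasts the replication genes carried the difference between irradiated and non-irradiated libraries. Mcm3, a subunit of the replicative helicase, was at 341.6 and 340.2 CPM without irradiation and at 93.45 and 108.2 CPM with it. Gins2 was at 54.9, 63.22, 14.38 and 18.03 CPM, and Mcm7 at 502.8, 481.6, 196.6 and 160.2 CPM. For each of these genes both irradiated libraries were below both non-irradiated ones, and the genotypes were alike. In the control pair Mcm3 was 3.65-fold lower (log2 ratio -1.87, interval -2.04 to -1.7), and in the Vegfc-deleted pair 3.14-fold lower. At the 1.5-fold threshold used for all calls, 12 of 14 G1/S members were lower in the irradiated control library and none was higher (9.33% of all genes were), with a median log2 ratio of -1.12. Many genes went down in this type, 46.7% of all genes with 30 or more counts (median -0.51), and the members' count is read against that. The Vegfc-deleted pair had 13 of 14 lower (median -1.13), against 61.5% of all genes (median -0.81). With scaling factors that centre the genes (TMM), the G1/S medians were -0.81 and -0.53.

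Mitotic genes of mid erythroblasts did not move as a group. Mki67, whose protein Ki-67 coats mitotic chromosomes, was at 2741, 2773, 3841 and 3351 CPM, which is higher with irradiation but within 1.5-fold. Ube2c was at 1114, 957.9, 1670 and 1629 CPM, 1.7-fold higher in the irradiated Vegfc-deleted library than in its non-irradiated counterpart. Birc5, encoding survivin of the chromosomal passenger complex, was at 1088, 974.4, 551.3 and 600.5 CPM, lower in both irradiated libraries. Of the 18 G2 and mitosis members, 5 were lower and none higher in the control pair (median log2 ratio -0.10), and 4 were lower and 1 higher in the Vegfc-deleted pair (median -0.34), where 6.03% of all genes were higher. With TMM factors those medians turned positive, to 0.20 and 0.26, so no direction is read for the mitotic group. Stmn1 and Hmgb2 were both lower in each pair. Between genotypes, no member of either list differed by 1.5-fold or more in mid erythroblasts, with or without irradiation, while of all genes 20.5% were higher and 2.21% lower in the deleted non-irradiated library, and 3.98% were higher and 9.69% lower in the deleted irradiated one.

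The make-up of the type differed between the libraries. Mid erythroblasts formed 2 clusters, the first with 722, 658, 280 and 199 cells and the second with 584, 654, 7 and 5 cells, so the irradiated libraries held few cells of the second. In the second cluster 99.3% and 99.4% of non-irradiated cells were called S phase, and its haemoglobin genes were at 209200 and 139900 CPM. In the first, 68.8%, 67.7%, 67.5% and 63.8% were called S phase, and haemoglobin was at 440500, 454600, 477300 and 483000 CPM. Within the first cluster alone, chosen for this after the data were seen, the replication genes differed less. Only 3 of 14 G1/S members were lower in the irradiated control library (median -0.29, with 20.2% of all genes lower), and 3 of 14 in the irradiated Vegfc-deleted library (median -0.32, with 25.3% lower). Mcm3 there was at 112.9, 122.1, 81.09 and 104.2 CPM, a far smaller gap than over the whole type. The G2 and mitosis members were lower for 7 of 18 and 8 of 18 within it, with summed levels of 13610, 13150, 10990 and 9968 CPM. The share of S-phase calls in the whole type, 82.8%, 83.7%, 68.3% and 64.2%, was thus lower in the irradiated libraries, whereas in the first cluster the 4 shares lay between 63.8% and 68.8%.

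Late erythroblasts showed the opposite pattern for replication genes. Mcm6, another helicase subunit, was at 2.306, 6.242, 41.19 and 8.528 CPM, Pcna at 9.013, 7.318, 53.54 and 15.63 CPM, and Rrm2 at 32.7, 26.48, 143.6 and 95.23 CPM. The irradiated control library was highest for all 3. Rrm2 was 4.39-fold higher in the control pair (log2 ratio 2.13, interval 1.85 to 2.43) and 3.61-fold higher in the Vegfc-deleted pair (1.85, 1.4 to 2.29), and Mcm6 was 17.2-fold higher in the control pair on 80 against 11 counts. Of 9 G1/S members with enough counts, 8 were higher in the irradiated control library (median 1.65), against 46.9% of all genes (median 0.52). The Vegfc-deleted pair had 4 of 5 higher and 1 lower, with 31.5% of all genes higher. TMM factors moved the median of all genes in the control pair from 0.52 to -0.24 and that of the G1/S members to 0.88. Mki67 was at 410.8, 455.7, 906.6 and 737.7 CPM, 2.21-fold and 1.62-fold higher in the control and Vegfc-deleted pairs, but in the Vegfc-deleted pair its log2 ratio of 0.7 became -0.03 with TMM factors.

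Other mitotic genes of late erythroblasts were lower. Cenpe, a kinesin of the kinetochore, was at 72.1, 82.44, 32.44 and 22.74 CPM, and Tpx2, which seeds spindle microtubules, at 39.2, 37.24, 19.56 and 7.107 CPM. Both genes were lower in both irradiated libraries. Of 15 G2 and mitosis members, 10 were lower and 1 higher in the control pair (median -0.67), with 9.21% of all genes lower, and 7 were lower and 2 higher in the Vegfc-deleted pair (median -0.45), with 19.1% lower. The share of late erythroblasts called cycling was 37.0% (33.2 to 41.0), 41.1% (37.0 to 45.2), 50.2% (43.1 to 57.4) and 41.3% (31.1 to 52.1). The irradiated control share was 1.36 times the non-irradiated one (interval 1.06 to 1.72), and the Vegfc-deleted ratio was 1.01 (0.694 to 1.42). With 5 UMIs from 5 genes of either phase list required, the control ratio turned (log2 -0.29, shares of 6.28% and 4.98%), and without thinning the shares were 88.3% and 93.6%, so this difference depends on the call. S-phase calls were few in every library, at 1.98%, 2.80%, 12.4% and 5.43%. Haemoglobin genes, at 762600, 763200, 695700 and 723000 CPM, took up most UMIs of the type and were lower with irradiation. Their part in these differences was not tested.

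**Figure D4:**
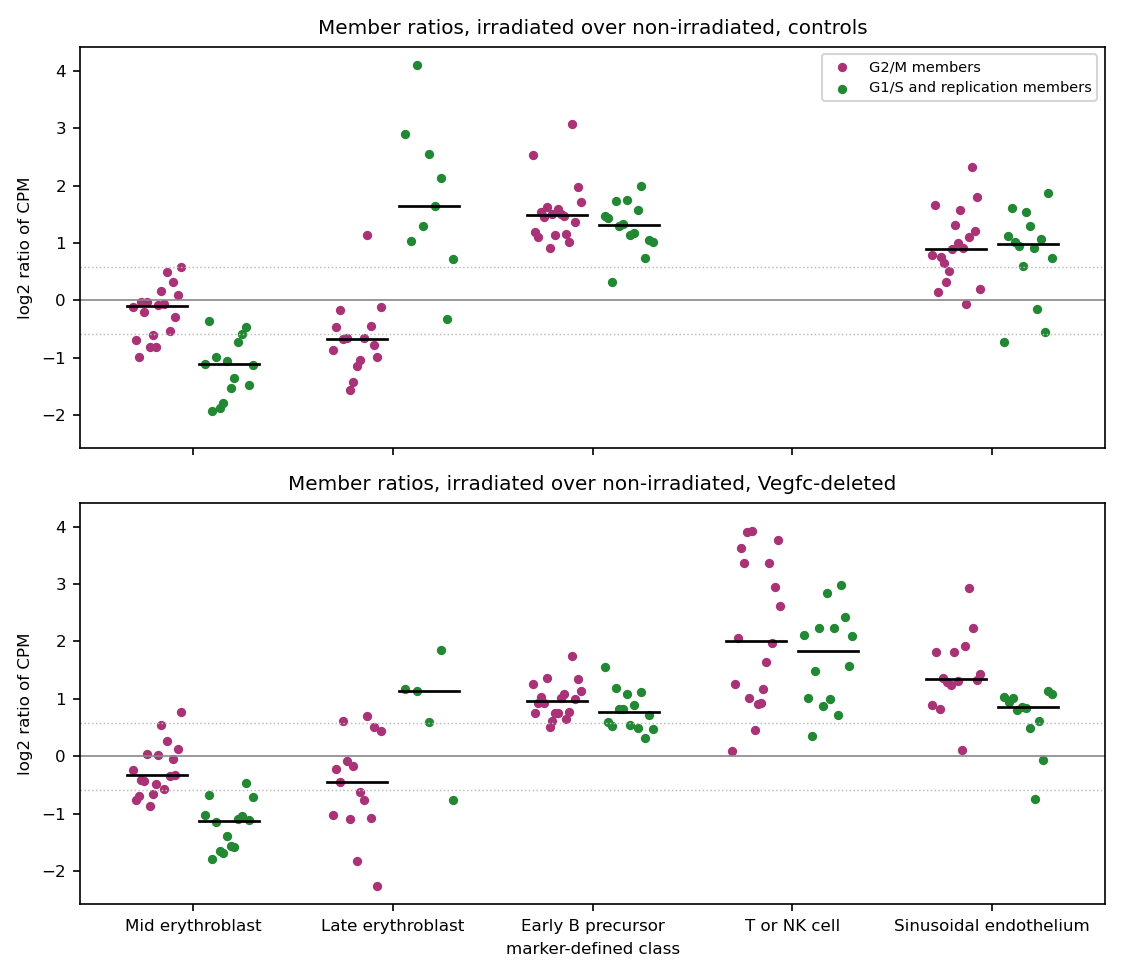
Log2 ratio of each member, irradiated over non-irradiated (y axis), in each cell type, for the control and Vegfc-deleted pairs; points are members with 30 or more counts, bars are medians and dotted lines mark 1.5-fold. G1/S members sit low in mid erythroblasts (medians -1.12 and -1.13) and high in early B precursors (medians 1.32 and 0.77); T or NK cells have no control pair because the non-irradiated control library held none.

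Early B precursors, which pass through large dividing stages while they rearrange their receptor genes, had a higher cycling share in both irradiated libraries. The share called cycling was 24.8% (21.7 to 28.1) and 29.8% (26.4 to 33.4) without irradiation and 68.7% (63.9 to 73.3) and 76.7% (68.5 to 83.7) with it. The irradiated share was 2.77 times the non-irradiated one in controls (2.29 to 3.36) and 2.57 times in the Vegfc-deleted pair (2.00 to 3.29). Between genotypes the ratios were 1.20 (0.979 to 1.48) without and 1.12 (0.878 to 1.41) with irradiation, both intervals reaching 1. The strict call gave 4.38% (3.02 to 6.13), 10.4% (8.23 to 13), 22.1% (18.1 to 26.6) and 34.9% (26.7 to 43.8), again lower without irradiation than with it. Without thinning the shares were 59.9%, 59.2%, 86.9% and 88.4%, a smaller gap. Cells called cycling were also the deeper ones, with median UMIs of 7492, 9198, 18253 and 15826 against 4817, 4948.5, 6512 and 5528.5 in the rest. The part of this in the shares was not tested beyond thinning. Free haemoglobin RNA went the other way, at 13010, 9830, 610.3 and 358.4 CPM in these cells.

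Nearly all members were higher in the irradiated early B precursors. Top2a, the topoisomerase that untangles replicated DNA, was at 322.1, 496.6, 827.2 and 994.7 CPM, and Plk1, the polo-like kinase of mitotic entry, at 8.411, 30.56, 71.79 and 102.8 CPM. Among replication genes, Rrm1, the large ribonucleotide reductase subunit, was at 81.61, 138.3, 327.4 and 300.4 CPM. For these genes the irradiated libraries stood above both non-irradiated ones, and of the non-irradiated libraries the Vegfc-deleted one was higher. In the control pair Plk1 was 8.43-fold higher (log2 ratio 3.08, interval 2.61 to 3.62), Rrm1 4.01-fold (2.0, 1.84 to 2.17) and Top2a 2.57-fold (1.36, 1.28 to 1.45). Gins2 moved least in that pair (log2 ratio 0.33), at 43.65, 46.87, 54.99 and 67.44 CPM in the 4 libraries. For the Vegfc-deleted pair the smallest ratio was that of Rrm2 (0.31). All 18 G2 and mitosis members (median 1.5) and 13 of 14 G1/S members (median 1.32) were at least 1.5-fold higher in the control pair, against 21.5% of all genes (median 0.00). For the Vegfc-deleted pair these counts were 17 of 18 and 9 of 14, with medians of 0.96 and 0.77, against 14.5% of all genes.

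The genotypes also differed in mitotic genes of early B precursors without irradiation. Ube2c was at 83.88 CPM in the control and 220.1 CPM in the Vegfc-deleted non-irradiated library, 2.62-fold apart (log2 ratio 1.39, interval 1.22 to 1.57), and Aurka, the centrosomal aurora kinase, was 2.82-fold higher in the latter (8.638 and 24.57 CPM). Of the G2 and mitosis members 16 of 18 were higher in the deleted library (median 0.87), against 6.07% of all genes, while 2 of 14 G1/S members were (median 0.41). With irradiation 2 of 18 G2 and mitosis members, among them Ube2c at 275.4 and 483.9 CPM, were higher in the deleted library and 2.92% of all genes were. There 2 of 14 G1/S members were lower, among them Pcna at 488.9 and 321.2 CPM, with 9.12% of all genes lower. The comparisons share libraries: each non-irradiated library enters both an irradiation and a genotype comparison. Whether the genotype difference itself changes with irradiation cannot be tested with 1 library a group.

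**Figure D5:**
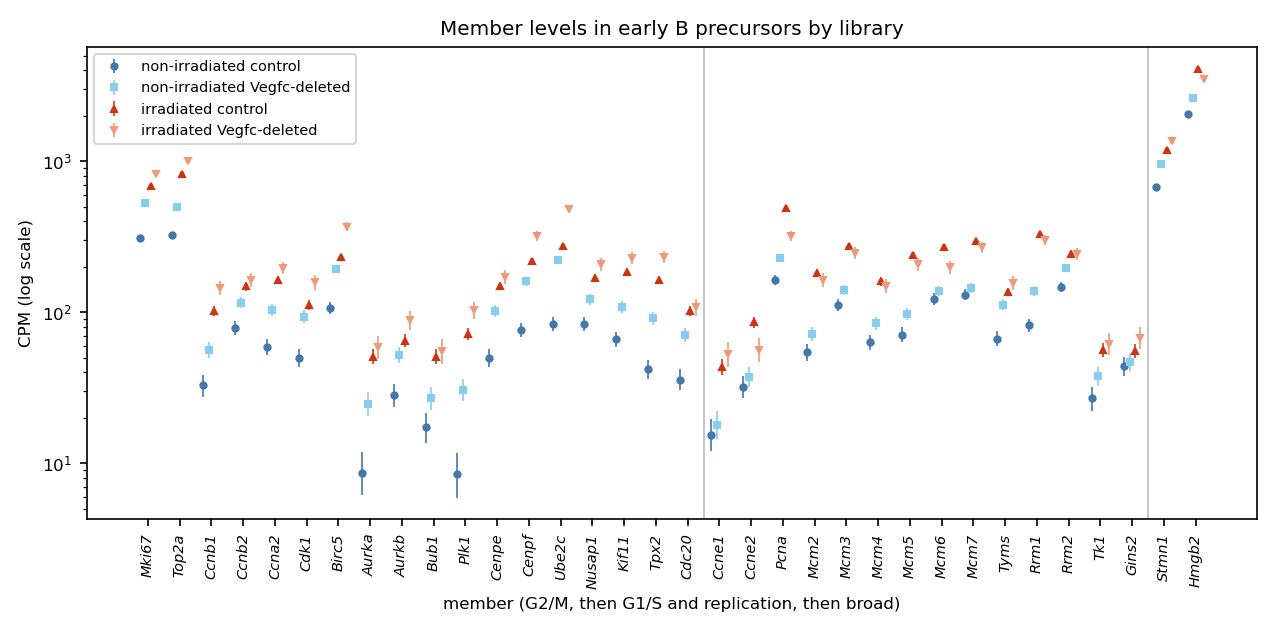
Level (y axis, CPM, log scale) of each member (x axis) in early B precursors in the 4 libraries. Each point is 1 library, and bars are Poisson intervals, which cover counting error only. Plk1 runs from 8.411 to 102.8 CPM, with both irradiated libraries above both non-irradiated ones, while Gins2 spans 43.65 to 67.44 CPM.

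Different clusters held most early B precursors in the groups. Of the clusters, cluster 7 held 117, 152, 308 and 110 cells, cluster 6 held 349, 315, 51 and 11, and cluster 9 held 310, 241, 37 and 8. Igll1, Vpreb1, Vpreb2 and Dntt (surrogate light chain and early rearrangement genes) were among the leading genes of both cluster 7 and cluster 9. Mzb1 was also among those of cluster 7. Cycling cells were 60.8%, 70.6%, 83.9% and 84.5% of cluster 7 and 24.6%, 27.3%, 17.6% and 54.5% of cluster 6, the last from 11 cells. In cluster 9 they were 13.6%, 9.7% and 13.5%, with none among 8 cells of the irradiated Vegfc-deleted library. The cluster with the highest cycling share was thus the one that held most early B precursors in both irradiated libraries. Within cluster 7, chosen after the data were seen, Plk1 was at 14.18, 52.18, 76.97 and 106.0 CPM and Aurka at 11.14, 46.84, 54.91 and 62.11 CPM. The non-irradiated control library was the lowest for both genes. In the control pair 16 of 18 G2 and mitosis members (median 1.02) and 6 of 14 G1/S members (median 0.42) were still higher, against 20.5% of all genes in that cluster, but Gins2 was 1.56-fold lower. For the Vegfc-deleted pair the counts were 4 of 18 and 1 of 14, against 9.36%. Without irradiation 17 of 18 G2 and mitosis members were higher in the deleted library within cluster 7 (median 0.97), against 10.0% of all genes, and 10 of 18 within cluster 6, against 6.9%. Cluster 9 did not share this: of only 4 such members with enough counts, none was higher and 2 were lower in the deleted library. Of all genes there, 4.56% were higher and 4.25% lower. In cluster 6 the irradiation difference ran the other way in controls, with 14 of 16 G2 and mitosis members lower (median -1.43) and 16.7% of all genes lower.

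T or NK cells could be compared only where the libraries held them, since the non-irradiated control library had none, and the others had 36, 44 and 333. Their cycling shares were 9.09% (1.92 to 24.3), 45.0% (29.3 to 61.5) and 33.2% (28.2 to 38.6), higher in the irradiated libraries. In the Vegfc-deleted pair the ratio was 3.66 (1.22 to 18), but without thinning the shares were 75.0% and 62.5%, the other way round. Top2a was at 55.69, 481.9 and 442 CPM and Mki67 at 111.4, 406.1 and 352 CPM, with 14 and 28 counts in the non-irradiated library. In that library 1 cell held 79 of the 119 G2 and mitosis UMIs. The summed level was 473.4, 2219 and 1931 CPM, and 165.4, 1718 and 1796 CPM without the highest cell of each library. Stmn1 was at 19.89, 748.1 and 592.7 CPM, with only 5 counts in the non-irradiated library. In the Vegfc-deleted pair 16 of 18 G2 and mitosis members (median 2.01) and 13 of 14 G1/S members (median 1.84) were higher, against 31.4% of all genes (median 0.21). From thinned cells the medians were 0.63 and 1.54. Haemoglobin RNA in these cells was at 13620, 489.7 and 1993 CPM, lower in the irradiated libraries.

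Among myeloid cells, dendritic cells could be compared only in the Vegfc-deleted pair (46 and 100 cells). Their cycling share was 15.6% without and 51% with irradiation, a ratio of 3.28 (1.48 to 8.56). Top2a was 3.44-fold higher (159.0 and 549.7 CPM), and 17 of 18 G2 and mitosis members were higher (median 1.42) against 21.8% of all genes, while 4 of 13 G1/S members were higher and 2 lower (22.3% of all genes lower). Different clusters held these cells, with 42 of the 46 non-irradiated cells in cluster 29 and 81 of the 100 irradiated cells in cluster 27. Siglech, Cox6a2 and Ccr9 were among the leading genes of cluster 29, and Xcr1, Naaa and Clec9a among those of cluster 27. The pair thus compares mostly different kinds of dendritic cell. Cycling shares were 7.32% and 26.3% within cluster 29, and 100% (of only 4 cells) and 56.8% within cluster 27. A single cell held 367 of the 556 non-irradiated G2 and mitosis UMIs, and without the highest cell of each library the sums moved from 1133 and 2894 CPM to 421.2 and 2785 CPM. In immature neutrophils of the control pair, 7 of 18 G2 and mitosis members were higher, against 27.0% of all genes. Tpx2 there was at 86.19, 93.37, 187.3 and 124.8 CPM. Monocytes had 6 of 18 G2 and mitosis members lower in the control pair (11.0% of all genes lower) and 6 in the Vegfc-deleted pair (10.4%), and cycling shares of 50%, 41.3%, 34.5% and 38.1%. The monocyte clusters were unevenly filled: cluster 17 held 5, 8, 49 and 298 cells, with cycling shares of 24.5% and 29.5% in the irradiated libraries, whereas in cluster 20 the 4 shares were 60.0%, 46.2%, 66.7% and 64.2%. The lower share over the whole type was thus not seen within cluster 20. It was seen within cluster 13, where the shares were 53.8%, 32.0%, 27.0% and 25.9%, from 13, 25, 37 and 112 thinned cells. Basophils or mast cells had 13 of 14 G2 and mitosis members higher in the control pair (median 1.75, with 24.1% of all genes higher), from 35 irradiated cells, while 1 of 11 G1/S members was higher and 4 were lower (12.2% of all genes lower). In the Vegfc-deleted pair, with 28 and 25 cells, none of 4 G2 and mitosis members was higher and 2 were lower (9.74% of all genes higher, 13.3% lower). The basophil G2 and mitosis sums were 917.3, 1563, 3423 and 1228 CPM, and 3 cells held 50% of the UMIs in the irradiated control library.

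Sinusoidal endothelium, the lining of the marrow's venous vessels, had few cycling cells. The shares were 6.91% (4.33 to 10.4), 4.52% (2.61 to 7.24), 11.1% (9.49 to 12.8) and 7.17% (5.34 to 9.40), where LepR+ stroma had 3.92% to 6.12%. Most were called by G1/S genes, since S-phase calls were 4.61%, 3.67%, 10.5% and 6.73% and G2/M calls 2.30%, 1.41%, 2.12% and 1.64%. The irradiated share was 1.60 times the non-irradiated one in controls (1.01 to 2.66) and 1.59 times in the Vegfc-deleted pair (0.886 to 2.99), and with irradiation the deleted library was 0.648 times the control one (0.459 to 0.900). Without thinning the shares were 72.8%, 64.4%, 68.5% and 50.7%, which no longer places the irradiated libraries higher. The strict call found 0 of 304 and 0 of 354 cells without irradiation (limits of 0.987% and 0.847%, taken as 3 counts of the total, with exact 95% bounds of 1.21% and 1.04%) and 11 of 1417 (0.776%) and 8 of 669 (1.2%) cells with it. When cells marked as doublets were kept, the strict counts were 13 of 333, 3 of 381, 15 of 1430 and 9 of 678, with the non-irradiated control highest at 3.9%. The direction in controls therefore depends on the removal of doublets. The type's cells lay mostly in cluster 8 without irradiation (293, 323, 19 and 6 cells) and in cluster 0 with it (12, 34, 1399 and 664 cells).

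In the irradiated libraries a few endothelial cells carried much of the mitotic signal: 50% of the G2 and mitosis UMIs of the sinusoidal type lay in 49, 39, 9 and 4 cells. Cells of the sinusoidal type with 10 or more UMIs of G2 and mitosis members numbered 2, 3, 34 and 11. In the irradiated libraries all of these cells had UMIs of the sinusoidal markers Stab2, a scavenger receptor, and Flt4, the receptor for the protein of Vegfc. Their Stab2 level was 1173 and 961.4 CPM and that of Cd34, a marker of arterial and capillary endothelium, 14.03 and 22.1 CPM. These Cd34 levels rest on 8 and 4 counts, found in 11.8% and 9.09% of the cells, so no Cd34 difference is read. Other sinusoidal cells of these libraries had more Stab2, at 1746 and 1663 CPM, and had Cd34 at 3.401 and 2.782 CPM. Flt4 was at 736.6 and 414.4 CPM in the former and at 1082 and 866.9 CPM in the latter. Cells of the arterial and capillary type had 502.5 and 486.8 CPM of Cd34 and 255.6 and 292.1 CPM of Stab2. In the remaining sinusoidal cells the haemoglobin gene Hbb-bs was at 3226, 2944, 244.3 and 111.6 CPM, again higher in both non-irradiated libraries. Of sinusoidal cells called cycling, 47.6% and 31.2% without irradiation and 0.637% and 0% with it held 10 or more haemoglobin or granule UMIs, against 21.9%, 10.9%, 0.476% and 0.161% of cells not called.

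As a sum over the type, the G2 and mitosis members were at 144.7, 109.7, 242.8 and 268.2 CPM, and at 134.4, 96.35, 223.2 and 226.1 CPM without the highest cell of each library. Top2a was at 21.73, 11.94, 50.52 and 57.14 CPM and Cenpf, a kinetochore protein, at 5.839, 5.833, 17.81 and 20.9 CPM, higher in both irradiated libraries, whereas Mki67 was alike at 41.52, 34.72, 39.82 and 37.59 CPM. In the control pair 13 of 18 G2 and mitosis members and 11 of 14 G1/S members were higher and 1 G1/S member was lower (medians 0.90 and 0.98), against 18.3% of all genes higher and 7.58% lower. In the Vegfc-deleted pair 13 of 14 and 9 of 12 were higher and 1 G1/S member was lower (medians 1.34 and 0.85), against 15.3% of all genes higher and 7.21% lower. With doublets kept, the control medians were -1.45 and -0.19, and from thinned cells the G2 and mitosis median of controls was -0.41, so no direction is read for mitotic genes in the control pair. Pcna was at 127.5, 91.94, 115.8 and 55.12 CPM, lowest in the irradiated Vegfc-deleted library. Between genotypes few members differed: without irradiation 2 of 4 G2 and mitosis members were lower in the deleted library and none higher (3.91% of all genes lower, 4.23% higher), and with it 1 of 18 was higher and 3 of 14 G1/S members were lower (2.88% of all genes higher, 5.74% lower).

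LepR+ stroma and mature neutrophils, types near the background of the call, gave opposite directions in the control and Vegfc-deleted pairs. In stroma the summed G2 and mitosis level was 151.4, 166.1, 58.1 and 400.6 CPM, and 1 cell held 371 of the 575 UMIs in the last library. Without the highest cell of each library the sums were 147.5, 122.5, 44.65 and 144.7 CPM. Of 12 G2 and mitosis members with enough counts, 9 were lower and 1 higher in the control pair (10.4% of all genes lower, 17.9% higher), while 10 were higher in the Vegfc-deleted pair (18.7% of all genes higher). In mature neutrophils the sums were 278.7, 655.4, 544.2 and 139.2 CPM, and 237.3, 495.9, 368.1 and 98.88 CPM without the highest cells. There 6 of 10 members were higher in the control pair (25.8% of all genes higher) and 9 of 9 lower in the Vegfc-deleted pair (14.4% lower). In each mature neutrophil library 2 to 6 cells held 50% of these UMIs, so the sums describe a few cells. The clusters behind both types also differed between libraries: of stroma, cluster 2 held 1005, 596, 21 and 9 cells and cluster 12 held 2, 3, 377 and 125, and of mature neutrophils, cluster 19 held 72, 200, 30 and 11 cells and cluster 10 held 1, 8, 68 and 489.

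Cells of the megakaryocyte lineage, the source of platelets, had lower levels in the irradiated libraries. Their cycling shares were 21.0%, 16.7%, 6.97% and 2.44%, the last from 1 of 41 thinned cells. The irradiated share was 3.02 times lower in the control pair (interval 1.54 to 6.18) and 6.83 times lower in the Vegfc-deleted pair (1.10 to 283). The summed G2 and mitosis level was 2010, 794, 97.08 and 41.83 CPM, but 1 cell held 1198 of the 1962 UMIs in the first library, and without the highest cell of each library the sums were 959.3, 510.1, 86.67 and 39.13 CPM. Mki67 was at 592.2, 118, 13.5 and 2.988 CPM, the last from 1 count. All 14 G2 and mitosis members with enough counts were lower in the control pair (median -4.16), as were 10 of 11 G1/S members (median -3.10), against 30.8% of all genes lower and 41.2% higher, and the 1 G1/S member that was higher was Mcm7 at 60.45 and 107.4 CPM. In the Vegfc-deleted pair all 12 G2 and mitosis members were lower (median -3.94), against 35.0%. Haemoglobin RNA in these cells was lower too, at 15520, 15410, 5750 and 3914 CPM, and the part of free RNA in the member levels was not tested.

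Further cell cycle genes, on lists that share no member, largely went with the members. In early B precursors of the control pair, 28 of 34 genes of replication licensing and forks, 45 of 49 of mitosis and cytokinesis, and 15 of 21 of G1 cyclins, kinases and E2F or FoxM1 factors were higher and none was lower, against 21.5% of all genes higher and 22.1% lower. In the same pair 2 of 15 cell cycle inhibitors were higher and 7 lower, and Btg1 and Btg2, antiproliferative genes of resting lymphocytes, were at 1470, 1060, 226.3 and 155.6 CPM and at 716.1, 626.6, 99.68 and 94.8 CPM in the 4 libraries. Non-irradiated Vegfc-deleted early B precursors had 38 of 49 mitosis genes higher than the control library, but 4 of 34 licensing and fork genes, against 6.07% of all genes. In mid erythroblasts of the control pair 29 of 34 licensing and fork genes were lower and 11 of 49 mitosis genes were, while 46.7% of all genes were lower. The make-up of that type differed between the libraries, and these lists were not recounted within its first cluster, where 3 of 14 G1/S members were lower. Cdk4, a G1 kinase, was at 78.21, 132.1, 9.688 and 10.3 CPM there, and Dut, which keeps uracil out of DNA, at 427.9 CPM in the non-irradiated and 82.82 CPM in the irradiated control library. Cdkn1a, the p21 inhibitor that p53 switches on, was at 6.15, 4.774, 76.88 and 61.81 CPM in mid erythroblasts, 12.5-fold and 12.9-fold higher in the irradiated libraries, and at 9.22, 11.89, 1690 and 923.1 CPM in the megakaryocyte lineage. In sinusoidal endothelium 30 of 46 mitosis genes were higher and 1 lower in the control pair (18.3% of all genes higher, 7.58% lower), where the direction of the members turned with doublets kept, while the early response genes Gadd45b and Myc were at 160.6, 129.7, 14.84 and 2.528 CPM and at 97.31, 53.05, 15.2 and 5.563 CPM.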

How the data were processed

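Single-cell 3′ RNA sequencing libraries (10x Genomics, kit v3.1) gave 1 UMI count matrix per group, made with Cell Ranger 2.1.1 on mm10 per the submitters' processing notes, although the deposited matrix headers name 3.1.0. The counts are whole UMIs per gene and cell as deposited by the authors, not normalized. The members and gene lists were chosen with earlier results of these data known. Cells with under 500 genes or over 10% mitochondrial UMIs were left out, as were the highest Scrublet scores at 0.8% per 1000 barcodes (444, 479, 212 and 211 cells marked as doublets). Clustering (scanpy 1.11.5, 2000 variable genes, 40 components, 20 neighbours, Leiden resolution 1) left out all cell cycle genes. Of 34 clusters, classes were named from markers. Cycling was called after thinning to 1500 UMIs. A ratio used summed counts plus a prior of 0.5, and was called at 1.5-fold with 30 or more counts in either library and 20 or more cells in both. Intervals (95%) are exact binomial, Poisson or conditional, counting error only. Genes named per type were the highest by level and the extremes by fold. Of the genes most like the members in pattern, 1 is not reported here. Scripts were tested on simulated data. Differences between pools of mice or library preparations cannot be told apart from those between groups.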

Additional observations from a re-analysis of the deposited data

Results flagged for a closer look

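The median log2 ratio of the G2 and mitosis members, irradiated over non-irradiated, went in opposite directions in the genotypes for LepR+ stroma, at -1.31 in controls and 1.28 in the Vegfc-deleted pair, and for mature neutrophils, at 1.05 in controls and -2.28 in the Vegfc-deleted pair. Each value compares 1 library with 1 library, and the difference between the genotypes was not tested. Single cells carry much of these levels: the highest cell held 371 of 575 UMIs in irradiated Vegfc-deleted stroma, and 2 to 6 cells held 50% of the UMIs in each mature neutrophil library. Of stromal cells called cycling, 45.2% and 46.5% without irradiation and 5.88% and 16.7% with it held 10 or more haemoglobin or granule UMIs, and the part of such RNA in the values was not tested.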

How the results depend on the processing

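No paired analysis was possible because each group has 1 library, and none could be left out. Among recomputed cycling share ratios, 467 stayed close to the value reported, 40 moved and 7 turned. The log2 share ratio of irradiated over non-irradiated early B precursors, 1.47 in controls, was 0.82 at 3000 UMIs, 0.54 without thinning, 2.14 with 3 UMIs from 3 genes, 0.43 with 1 UMI and 2.29 with 5 UMIs from 5 genes of either phase list. In the Vegfc-deleted pair 1.36 became 0.91, 0.58, 1.81 and 0.45 under the first 4 of these. For sinusoidal endothelium of controls 0.65 became -0.09 without thinning, 1.87 with 3 UMIs, -0.28 with 1 UMI, -0.1 with doublets kept and 3.34 with 5 UMIs. In its Vegfc-deleted pair 0.64 became -0.34 without thinning and 3.61 with 5 UMIs, which also moved the irradiated genotype ratio from -0.62 to 0.05. Late erythroblasts of controls went from 0.44 to 0.08 without thinning and -0.29 with 5 UMIs, megakaryocytes of controls from -1.57 to -0.41 without thinning, -3.2 with 3 UMIs and -4.0 with 5 UMIs, and T or NK cells of the Vegfc-deleted pair from 1.67 to -0.27 without thinning and -0.06 with 1 UMI. The values of 3.34, 3.61 and -4.0 compare with a library in which 0 cells were called, so the prior of 0.5 sets their size and they are no bounds. For single members, Mki67 of late erythroblasts (Vegfc-deleted) went from 0.7 to -0.03 with TMM factors, and thinned counts took Mcm7 there from 1.17 to -1.89, Pcna of T or NK cells from 0.71 to -0.24, and in sinusoidal controls Mcm7 from 0.92 to -0.14 and the G2 and mitosis median from 0.9 to -0.41. With doublets kept, sinusoidal controls had medians of -1.45 (G2 and mitosis) and -0.19 (G1/S), Top2a at -1.18, Cenpf at -1.47, Mcm7 at -0.54, Plk1 at -1.25, Tk1 at -0.77 and Tpx2 at -0.8. Leaving out barcodes found in other libraries reversed none of the results. Except where fewer cells or UMIs enter by construction, the cause was not tested. Both calls of 5 UMIs from 5 genes (G2 and mitosis genes alone, or either list), the split by cluster and the leaving out of shared barcodes and highest cells were chosen after seeing the data.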
